A study of Mus musculus with 4 samples.

Results

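The genes described are the inhibitors of cyclin-dependent kinases (CDKs): Cdkn1a, Cdkn1b and Cdkn1c of the CIP/KIP family, Cdkn2a, Cdkn2b, Cdkn2c and Cdkn2d of the INK4 family, and the phosphatase gene Cdkn3. They were chosen by gene symbol, and the rule used no measured value. Earlier results of these data were known when they were chosen. The array held 13 probes for these 8 genes among 41174 probes in all. Of the 13 probes, 11 passed the filter on dim probes, and the 8 genes were all among the 17537 genes tested. The study turned on Nanos2, whose RNA-binding product holds male germ cells undifferentiated, in mouse germline stem cells, the cultured form of spermatogonial stem cells, to find the mRNAs that it regulates.

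Each group had 2 arrays, and both groups carried the same alleles, given by the labels as Roa-CreERT2;CAG-CAT-3FlagNanos2-pA: a knock-in of the tamoxifen-dependent recombinase CreERT2 and a transgene from which the recombinase releases expression of Flag-tagged Nanos2. The control group took DMSO for 48 hours, and the other group took 4-hydroxytamoxifen for 48 hours. No group took the compound without the transgene, so effects of Nanos2, of the compound and of the recombinase cannot be told apart. The age and strain of the donors of the cells were not given in the sources used here. Cells of both groups grew on mitomycin-treated embryonic fibroblasts, which were taken off before RNA was extracted, in medium with 20 ng/ml of GDNF and of EGF and 10 ng/ml of FGF2. Whether the replicates of a group are separate cultures is not stated in the labels, and the p-values therefore cover the spread of these arrays alone, which may be technical.

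CDKs bound to cyclins drive a cell through its division cycle, and the inhibitors hold them back. CIP/KIP proteins bind the cyclin and the kinase together and act mainly on CDK2 complexes, whereas INK4 proteins bind CDK4 and CDK6 and keep D-type cyclins away from them, which leaves the retinoblastoma protein active and E2F target genes silent. Cdkn3 encodes KAP, a phosphatase that removes the activating phosphate from CDKs and whose transcript is abundant in dividing cells.

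All values below are processed signals in arbitrary fluorescence units, or log2 differences, 4-hydroxytamoxifen minus DMSO, after each array was scaled to its 75th percentile. Errors are standard errors of the limma fit with 2 arrays per group. Spots well above background made up between 62.1% and 65.9% of an array, and 0 spots were saturated. Arrays of a group correlated at 0.996 and 0.997 against 0.948 to 0.954 between groups, over the 17537 genes tested. Nanos2, the targeted gene, read 353 and 352 in DMSO and 904 and 1070 in 4-hydroxytamoxifen, a rise of 1.56 ± 0.10 (adjusted p = 0.000843). Of the spermatogonial markers, 11 were on the array by name and all 11 were well above background on every array.

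Of the 8 inhibitor genes, 4 rose, 2 fell and 2 did not pass the test at an adjusted p of 0.05. The genes that rose were Cdkn1a, Cdkn2a, Cdkn2b and Cdkn2c, and those that fell were Cdkn1c and Cdkn3. Cdkn1b and Cdkn2d stayed short of the threshold. The whole array moved widely in this comparison: 40.5% of all genes were called higher and 29% lower, 69.5% in all, so a call on 6 of 8 inhibitors (75%) is close to the share of all genes. The median difference of the 8 genes was 0.58, beside 0.12 over all genes, whose middle range (25th to 75th percentile) ran from -0.38 to 0.71. For all 8 genes the arrays of one group did not overlap those of the other, as for 86.5% of genes tested. At least 2-fold rises, seen in 16.3% of genes, were found for Cdkn1a, Cdkn2b and Cdkn2c, and an at least 2-fold fall, seen in 8.05% of genes, for Cdkn3.

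**Figure D1:**
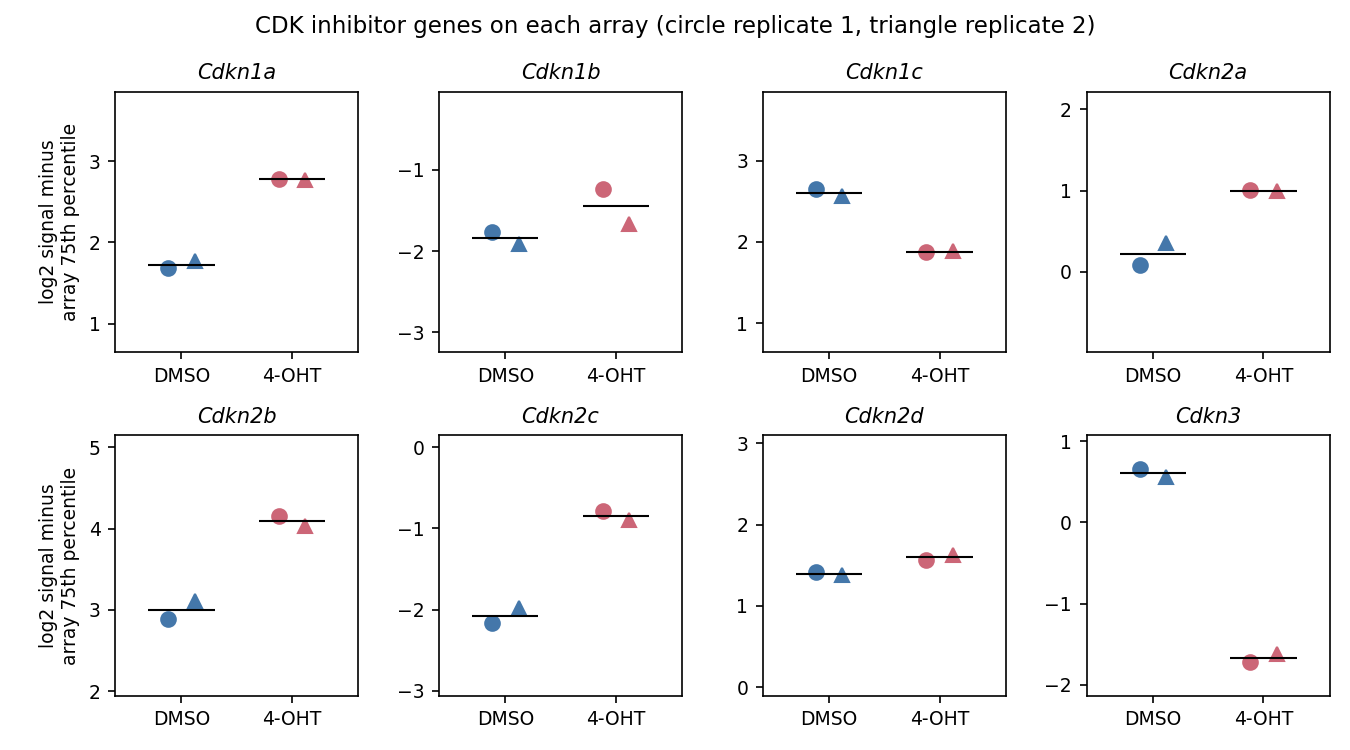
Levels of the 8 CDK inhibitor genes on the 4 arrays, as log2 signal relative to each array's 75th percentile; points are single arrays (circle for replicate 1, triangle for replicate 2) and lines the group means; 4-OHT stands for 4-hydroxytamoxifen, and the panels have different levels but the same span. The DMSO and 4-hydroxytamoxifen points separate in every panel, widely for Cdkn3 (a difference of -2.27) and narrowly for Cdkn2d (0.20).

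Among the CIP/KIP genes, 1 rose, 1 fell and 1 did not pass. Cdkn1a encodes p21, the inhibitor that p53 induces after DNA damage. Its probe, at chr17:29237377-29237436 on the plus strand of mm9, was spotted 10 times on each array, and its first 30 bases are shown because all values of this gene rest on it.
Cdkn1a probe: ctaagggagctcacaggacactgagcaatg
The probe read 2281 and 2444 in DMSO and 4647 and 4634 in 4-hydroxytamoxifen. The arrays of each group lay close together and the groups were far apart. Cdkn1a rose 2.07-fold, by 1.05 ± 0.07 (95% confidence interval 0.87 to 1.23, adjusted p = 0.000789), which put it at percentile 84.7 of all differences. Repeat spots of the probe varied by a standard deviation of 0.03 to 0.04 on the log2 scale within an array, well under the difference between groups.

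RefSeq (GRCm38.p6) gives Cdkn1a 2 transcription starts, 2.79 kb apart. The window of the earlier start holds a full p53 response element, a pair of adjoining decamers with no spacer and at most 1 mismatch to the consensus, 51 bases before the start. Only 29 of 32851 promoter windows of the same length (0.0883%) hold such a match on either strand, and the window of the later Cdkn1a start does not. The 250 bases before the earlier start, chr17:29090729-29090978 on the plus strand, are shown with that match in capitals.
Cdkn1a upstream: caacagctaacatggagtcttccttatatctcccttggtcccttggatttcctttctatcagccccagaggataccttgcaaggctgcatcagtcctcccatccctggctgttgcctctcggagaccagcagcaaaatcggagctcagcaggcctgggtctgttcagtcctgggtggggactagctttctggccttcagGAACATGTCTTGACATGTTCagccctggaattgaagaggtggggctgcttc
The array has 1 probe for the gene, so transcripts from the 2 starts were not measured apart, and nothing here measured p53 binding.

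Other transcripts that p53 is known to induce were counted beside Cdkn1a, together with the p53 inhibitors Mdm2 and Mdm4. Of 22 such genes 16 rose, 4 fell and 2 did not pass, 90.9% called beside 69.5% of all genes, with a median of 0.76. The largest rises were those of Perp (1.64 ± 0.12), a membrane protein of cell junctions, the death receptor Fas (1.52 ± 0.11) and the ectodysplasin receptor Eda2r (1.44 ± 0.07). Mdm2, the ubiquitin ligase that degrades p53, rose by 0.90 ± 0.10. Its partner Mdm4 fell by 1.72 ± 0.06, the glycolysis regulator Tigar fell by 1.42 ± 0.10, the DNA damage sensor Ddb2 fell by 0.87 ± 0.08 and the death effector Bax fell by 0.37 ± 0.08. The Bax call was lost when either DMSO array or 4-hydroxytamoxifen replicate 1 was left out (adjusted p = 0.0536, 0.0592 and 0.0675). The p53 transcript itself, Trp53, read 386 and 300 in DMSO and 319 and 342 in 4-hydroxytamoxifen, a difference of 0.03 ± 0.15 that did not pass (adjusted p = 0.853).

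Cdkn1b encodes p27, which holds CDK2 inactive in resting cells. It had 3 probes, 1 of which was not well above background on any array. The brightest, at chr6:134875215-134875274 on the plus strand of mm9, read 209 and 191 in DMSO and 288 and 215 in 4-hydroxytamoxifen. The 2 higher readings were those of 4-hydroxytamoxifen, but its replicate 2 lay near the DMSO arrays. The difference, 0.39 ± 0.17, did not pass (95% confidence interval -0.07 to 0.86, adjusted p = 0.104). Without 4-hydroxytamoxifen replicate 2 it was 0.61 and passed (adjusted p = 0.0266), without replicate 1 it was 0.18, and across all alternatives the adjusted p ran from 0.0266 to 0.329. A further Cdkn1b probe was well above background on 2 of the 4 arrays only and read 21.4 and 16.1 in DMSO and 21.3 and 20.4 in 4-hydroxytamoxifen. Its groups overlapped, and its difference was 0.24 ± 0.16 (probe fit, adjusted p = 0.250).

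Cdkn1c encodes p57, the CIP/KIP protein of an imprinted gene that is read mainly from the maternal chromosome. Its probe lies at chr7:150644753-150644812 on the minus strand of mm9. It read 4444 and 4260 in DMSO and 2473 and 2513 in 4-hydroxytamoxifen. Here the DMSO arrays were the high ones, by a wide margin against the spread within either group. Cdkn1c fell by 0.73 ± 0.07, 1.66-fold lower (95% confidence interval -0.91 to -0.55, adjusted p = 0.00145), at percentile 13.8 of all differences.

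The genes around Cdkn1c, which share its imprinted region, did not move one way. Of 8 tested genes named by RefSeq with probes within 200 kb on mm9, 3 rose, 3 fell and 2 did not pass. Over all genes tested, 40.5% were called higher and 29% lower, so calls both ways are common on this array. Kcnq1ot1, the long non-coding RNA that silences Cdkn1c on the paternal chromosome, read 656 and 809 in DMSO and 493 and 502 in 4-hydroxytamoxifen, a fall by 0.47 ± 0.12 (adjusted p = 0.0237). Phlda2, a growth-restraining gene imprinted like Cdkn1c, fell by 0.29 ± 0.08, and the histone chaperone gene Nap1l4 fell by 0.29 ± 0.06. Slc22a18, a transporter gene 40.4 kb away, read 363 and 373 in DMSO and 949 and 889 in 4-hydroxytamoxifen, a rise of 1.40 ± 0.07 (adjusted p = 0.000575). The neighbouring receptor genes Tnfrsf22 and Tnfrsf26 rose by 0.56 ± 0.10 and 0.84 ± 0.24. The arrays do not tell the parental alleles apart.

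Among the INK4 genes, 3 rose and 1 did not pass. Cdkn2a and Cdkn2b lie side by side on mouse chromosome 4, and their probes are 31.9 kb apart on mm9. Cdkn2a encodes 2 unrelated proteins from 2 first exons: p16Ink4a, an INK4 inhibitor, and p19Arf, which shields p53 from Mdm2. The single kept probe, at chr4:88920545-88920604 on the minus strand, is listed in the files under accessions of both transcripts and so does not separate them. Its first 30 bases are shown for that reason.
Cdkn2a probe: cacttctagcgatgctagcgtgtctagcat
It read 756 and 921 in DMSO and 1358 and 1351 in 4-hydroxytamoxifen. The 4-hydroxytamoxifen arrays were nearly equal, and DMSO replicate 2 stood above DMSO replicate 1 by 0.27 on the log2 scale. Cdkn2a rose 1.71-fold, by 0.78 ± 0.11 (95% confidence interval 0.47 to 1.08, adjusted p = 0.00483).

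The 2 RefSeq starts of Cdkn2a are 12.4 kb apart and differ in base composition. The window of the Arf start is 77.0% G and C with 45 CpG dinucleotides, and that of the Ink4a start 60.3% with 12, beside medians of 52.7% and 7 over all promoter windows. The E2F letters TTTCCCGC stand 99 bases before the Arf start, where capitals mark them. None of TTTCCCGC, TTTGGCGC, TTTCGCGC and TTTGCCGC occurs on either strand of the Ink4a window, and 2.26% of all windows hold at least 1 of them. The 250 bases before each start, chr4:89294620-89294869 for Arf and chr4:89282193-89282442 for Ink4a on the minus strand of GRCm38.p6, are set together to show the 2 promoters that the probe reads as 1.
Arf upstream: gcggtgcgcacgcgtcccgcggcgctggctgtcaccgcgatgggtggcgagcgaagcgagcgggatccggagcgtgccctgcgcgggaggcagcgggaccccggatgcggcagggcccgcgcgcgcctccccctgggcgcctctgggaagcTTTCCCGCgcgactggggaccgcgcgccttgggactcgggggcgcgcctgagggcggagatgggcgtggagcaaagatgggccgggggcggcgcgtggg
Ink4a upstream: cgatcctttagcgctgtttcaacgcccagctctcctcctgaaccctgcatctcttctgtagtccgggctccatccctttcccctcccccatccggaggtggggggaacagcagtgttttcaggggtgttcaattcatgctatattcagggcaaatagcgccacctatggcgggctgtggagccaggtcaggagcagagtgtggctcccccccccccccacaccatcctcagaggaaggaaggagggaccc

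Cdkn2b encodes p15, the INK4 inhibitor that TGF-beta signalling induces in many cells. Its probe lies at chr4:88952437-88952496 on the minus strand of mm9. It read 5244 and 6205 in DMSO and 12020 and 11115 in 4-hydroxytamoxifen, so the groups were far apart relative to their spread. Cdkn2b rose 2.14-fold, by 1.10 ± 0.11 (95% confidence interval 0.80 to 1.39, adjusted p = 0.00176). The third tested gene named by RefSeq within 200 kb, Mtap, which salvages methionine, read 636 and 711 in DMSO and 1223 and 1036 in 4-hydroxytamoxifen. It rose by 0.82 ± 0.12 (adjusted p = 0.0046). Cdkn2a, Cdkn2b and Mtap were thus all called higher, as were 40.5% of all genes tested.

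Cdkn2c encodes p18, an INK4 inhibitor that acts in spermatogenesis as well as in other tissues. It lies on chromosome 4 too, but apart from Cdkn2a and Cdkn2b. No other tested gene named by RefSeq had its chosen probe within 200 kb of that of Cdkn2c. The Cdkn2c probe at chr4:109333779-109333838 on the minus strand of mm9 read 158 and 182 in DMSO and 392 and 364 in 4-hydroxytamoxifen. Cdkn2c rose 2.35-fold, by 1.23 ± 0.10 (95% confidence interval 0.97 to 1.49, adjusted p = 0.00113), the largest rise of the 8 genes and at percentile 89.2 of all differences. A further probe read 100.1 and 129 in DMSO and 309 and 291 in 4-hydroxytamoxifen, a rise of 1.48 ± 0.14 (probe fit, adjusted p = 0.00181). The 2 probes are not independent readings of the transcript: they share 40 bases, of which 30 are shown.
Shared by the Cdkn2c probes: ccgttagttggttggctgtccgtttcacta

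Cdkn2d encodes p19Ink4d, an INK4 protein known from meiotic germ cells and neurons. Its probe, at chr9:21092980-21093039 on the minus strand of mm9, read 1898 and 1864 in DMSO and 1999 and 2101 in 4-hydroxytamoxifen. The 4-hydroxytamoxifen arrays were both higher, by little. The difference of 0.20 ± 0.07 narrowly did not pass (95% confidence interval 0.02 to 0.38, adjusted p = 0.0518) and lay 0.08 above the median of all genes. It passed with normexp background correction (0.19, adjusted p = 0.0353) and among genes well above background on all 4 arrays (0.20, adjusted p = 0.0421), and it shrank to 0.02 when arrays were scaled on their medians (adjusted p = 0.807).

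Cdkn3, the phosphatase gene, fell furthest. It had 3 probes, of which 2 were well above background. The probe with the higher mean covers 60 bases that the files place across 1524 bases of mm9, chr14:47389608-47391131 on the plus strand, and the other lies at chr14:47386895-47386954. The first 30 bases of each are shown because these separate stretches of the transcript read the same fall.
Cdkn3 probe with the higher mean: caagcaatataactatcttcatgaattccg
Cdkn3 other probe: accagaggggagctgtcaaaatatagagtc
The former read 1120 and 1053 in DMSO and 206 and 221 in 4-hydroxytamoxifen. Cdkn3 fell by 2.27 ± 0.08, 4.83-fold lower (95% confidence interval -2.48 to -2.06, adjusted p = 0.000404), at percentile 0.947 of all differences. The other probe read 691 and 624 in DMSO and 114 and 121 in 4-hydroxytamoxifen, a fall by 2.41 ± 0.09 (probe fit, adjusted p = 0.000553). On both probes each DMSO reading was several times each 4-hydroxytamoxifen reading. The remaining probe, at chr14:47387673-47387732, read 3.39 and 3.89 in DMSO and 3.17 and 4.21 in 4-hydroxytamoxifen and was not well above background on any array.

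The Cdkn3 promoter carries the letters of genes switched on late in the division cycle, a cell cycle homology region (CHR; TTTGAA or TTCGAA) and several CCAAT boxes. A CHR match stands 111 bases before the start on the minus strand, as found in 19.2% of all windows, and CCAAT occurs 4 times on either strand, against at least once in 37.4% of all windows. The 250 bases before the start, chr14:46760291-46760540 on the plus strand of GRCm38.p6, are shown with the CHR match and the 3 CCAAT matches that lie in them in capitals. None of these matches overlaps another.
Cdkn3 upstream: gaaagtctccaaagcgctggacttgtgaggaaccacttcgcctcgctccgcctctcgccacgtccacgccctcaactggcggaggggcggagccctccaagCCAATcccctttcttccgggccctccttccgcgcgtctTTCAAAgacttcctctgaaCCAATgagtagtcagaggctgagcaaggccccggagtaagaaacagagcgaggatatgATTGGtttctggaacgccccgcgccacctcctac
Of the other members with a RefSeq window, Cdkn2b had a CHR match, 161 bases before its start. The 10 windows of the 7 members that RefSeq matched held 0 TATAAA matches on either strand, against 13.6% of all windows with at least 1.

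Genes of the G2 and M phases fell as a group beside Cdkn3. All 24 measured fell (100% called, beside 29% of all genes called lower), with a median of -2.35 and a range from -3.93 to -1.04. The Aurora kinase gene Aurkb fell by 3.93 ± 0.08, the spindle motor gene Kif11 fell by 3.68 ± 0.07 and the proliferation marker Mki67 fell by 3.25 ± 0.08. Cdkn3 lay close to the median of that list. Of the tested genes named by RefSeq, Cnih1 lay nearest to the Cdkn3 probe, at 5.02 kb. It went the other way, with a rise of 0.58 ± 0.08 (adjusted p = 0.00503). In these bulk samples, fewer cells of a type and less RNA per cell cannot be told apart.

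**Figure D2:**
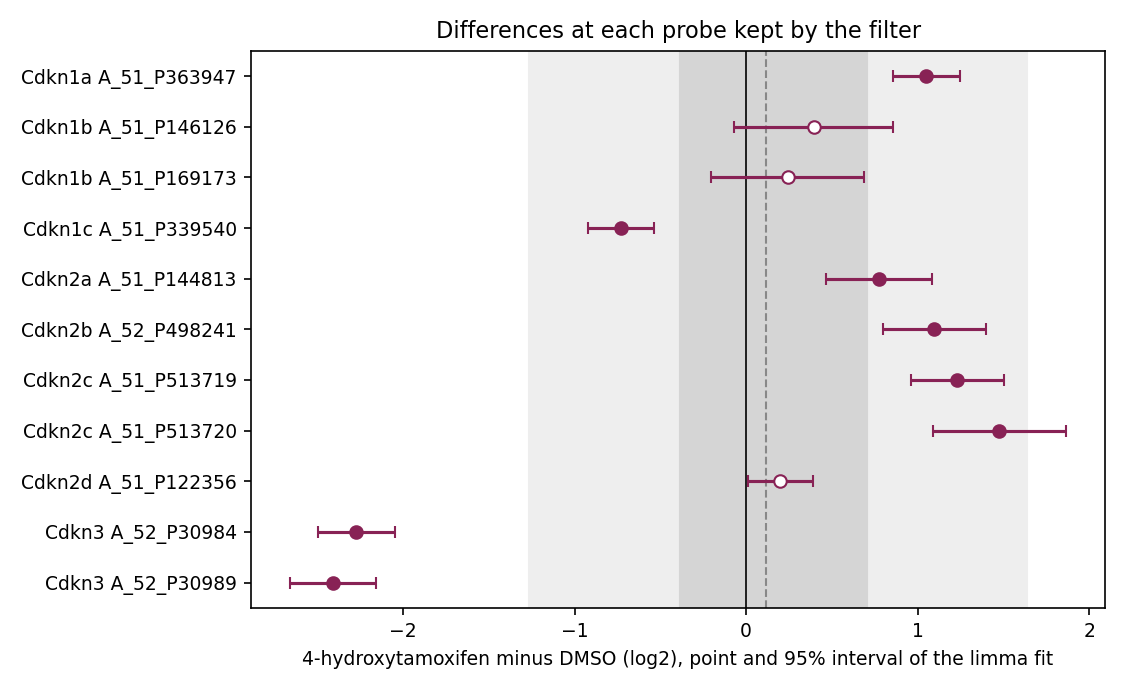
Log2 difference, 4-hydroxytamoxifen minus DMSO, at each of the 11 kept probes of the CDK inhibitor genes, with 95% confidence intervals from the limma fit over all kept probes (filled points passed the test, open ones did not; the dashed line is the median of all genes and the shaded bands run between their 25th and 75th and their 5th and 95th percentiles). Probes of 1 gene lie on the same side of 0, and the 2 Cdkn1b intervals reach across it.

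Where a gene had more than 1 kept probe, the probes moved the same way. Both Cdkn2c probes rose and both Cdkn3 probes fell, and neither of the 2 Cdkn1b probes passed. Of the 11 kept probes 5 rose and 3 fell, beside 36.5% and 30.8% of all kept probes on the array (67.3% in either direction).

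The spread between arrays of a group differed among the members. From replicate 1 to replicate 2 the DMSO readings differed by 0.27 for Cdkn2a, 0.23 for Cdkn2b and 0.19 for Cdkn2c, and by 0.08 for Cdkn1a, all higher in replicate 2. The 4-hydroxytamoxifen readings of these genes differed by -0.01, -0.12, -0.11 and -0.01. Cdkn1b had the widest gap, -0.43 in 4-hydroxytamoxifen, and this gap exceeded its difference between the groups. The 4 genes that rose were thus all higher in DMSO replicate 2 than in DMSO replicate 1. Of the fibroblast markers 23 of 23 were higher in DMSO replicate 2, by a median of 0.16. In 4-hydroxytamoxifen replicate 2, 8 of 23 were higher, with a median of -0.04. The share of all genes higher in DMSO replicate 2 was not counted, so this shift is not shown to be particular to either set.

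Markers of fibroblasts, the feeder cells, rose with Cdkn1a, Cdkn2a, Cdkn2b and Cdkn2c. Of 23 markers 22 rose, 0 fell and 1 did not pass, 95.7% called beside 69.5% of all genes. Their median was 0.95, with a range from 0.26 to 1.49. Their summed level, relative to each array's 75th percentile, was 244 and 278 in DMSO and 477 and 451 in 4-hydroxytamoxifen. The differences of Cdkn1a, Cdkn2a, Cdkn2b and Cdkn2c, between 0.78 and 1.23, lie inside the range of those markers. The part of fibroblast RNA in the rise of the 4 genes was not tested.

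Markers of other cell types moved less uniformly. Of 9 macrophage and blood markers 6 rose, 0 fell and 3 did not pass, 66.7% called beside 69.5% of all genes, with a median of 1.08. Their summed level was 16.8 and 18.7 in DMSO against 37.0 and 37.9 in 4-hydroxytamoxifen. Most of this sum came from Lyz2 alone, which rose by 1.08 ± 0.09. Of 7 Sertoli and Leydig markers 3 rose, 2 fell and 2 did not pass, 71.4% called, with a median of -0.02. Amh, Gata4, Fshr, Cyp11a1 and Hsd3b1 did not pass the filter on dim probes. Spermatogonial markers fell in 7 of 11 cases, with 2 rises and 2 not passed, 81.8% called, and a median of -0.86. The summed level of these markers was 77.2 and 75 in DMSO against 47.5 and 49.7 in 4-hydroxytamoxifen. Of the 2 rises 1 was that of Nanos2, the gene that the study turned on. Most of the summed level came from Ddx4 and Dazl. Ddx4 read 23793 and 22119 in DMSO and did not pass, and Dazl read 21753 and 22427 in DMSO and fell by 1.40 ± 0.06. The part of these cell types in the differences of the inhibitor genes was not tested.

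The targets of the inhibitors, CDKs and cyclins, mostly fell. Of 13 such genes 8 fell, 2 rose and 3 did not pass, 76.9% called beside 69.5% of all genes, with a median of -0.64. Ccna2, the S phase and mitotic cyclin, read 4962 and 5166 in DMSO and 347 and 390 in 4-hydroxytamoxifen and fell by 3.71 ± 0.08. Ccnb2, Cdk1 and Ccnb1, which form the mitotic kinase, fell by 3.42 ± 0.07, 2.33 ± 0.10 and 2.09 ± 0.08. Both rises were in G1 genes whose products the INK4 proteins restrain. The cyclin gene Ccnd1 rose by 1.19 ± 0.14 (adjusted p = 0.00273) and the kinase gene Cdk6 by 1.05 ± 0.14 (adjusted p = 0.00399). Other G1 genes did not rise: Cdk4, whose product INK4 proteins also bind, fell by 0.64 ± 0.08. The E-type cyclin genes Ccne2 and Ccne1 fell by 1.30 ± 0.11 and 0.26 ± 0.07 (adjusted p = 0.00133 and 0.0364). Ccnd2, Ccnd3 and Cdk2 did not pass. The Cdk6 call rests on the choice of its brightest probe, since the mean over its probes was 0.24 and did not pass (adjusted p = 0.157).

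Pocket proteins and E2F factors, which act after the CDKs, fell in 16 of 20 cases, with 3 rises and 1 not passed. That is 95% called, beside 69.5% of all genes, with a median of -0.61. The E2F activator gene E2f2 fell by 2.96 ± 0.07 and the E2F repressor gene E2f8 fell by 1.85 ± 0.15. Of the MuvB partner genes, Mybl2 fell by 2.68 ± 0.09 and Foxm1 fell by 2.29 ± 0.08. Rbl2, which encodes the pocket protein p130 of resting cells, read 87.4 and 108 in DMSO and 256 and 244 in 4-hydroxytamoxifen and rose by 1.44 ± 0.12. E2f6 and Lin52 rose by 0.54 ± 0.07 and 0.53 ± 0.06, calls that were lost with spike-in scaling (adjusted p = 0.0978 and 0.112).

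Genes whose products mark CIP/KIP proteins for degradation fell in 8 of 12 cases, with 1 rise and 3 not passed. That is 75% called, close to the 69.5% of all genes, with a median of -0.48. Skp2, the F-box protein that targets p27, read 953 and 920 in DMSO and 261 and 238 in 4-hydroxytamoxifen and fell by 1.83 ± 0.08. Its cofactor gene Cks1b fell by 0.66 ± 0.06. Dtl and Pcna, which direct the ubiquitin ligase that removes p21 in S phase, fell by 1.97 ± 0.08 and 1.55 ± 0.06. Skp1 rose by 0.23 ± 0.07, a call lost in 8 of 13 alternatives, among them leaving out any 1 array (adjusted p = 0.0844 to 0.157). The arrays measure RNA, and the amount of p21, p27 or p57 protein was not measured.

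Activators of inhibitor gene transcription moved both ways: of 14 tested 6 rose, 3 fell and 5 did not pass. That is 64.3% called, with a median of 0.10, beside 69.5% and 0.12 over all genes. Trp63, a p53 family member, was not well above background in DMSO, with signals of 5.9 and 11.6, and read 42.1 and 41.5 in 4-hydroxytamoxifen, at least 2.56-fold higher. Klf6, a zinc finger activator of Cdkn1a, rose by 1.30 ± 0.11. Foxo1 and Foxo3, forkhead factors that activate Cdkn1a and Cdkn1b, fell by 1.31 ± 0.06 and 0.75 ± 0.11, and Smad2, a TGF-beta effector, fell by 0.57 ± 0.06. Ets1, an activator of the Ink4a promoter, rose by 1.17 ± 0.12 at its brightest probe, but the mean of its probes was -0.03 (adjusted p = 0.74).

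Repressors of the inhibitor genes fell in 11 of 20 cases, with 7 rises and 2 not passed. That is 90% called, beside 69.5% of all genes, with a median of -0.39. Among Polycomb genes, which keep Cdkn2a and Cdkn2b silent in young cells, Ezh2 read 1842 and 1749 in DMSO and 513 and 491 in 4-hydroxytamoxifen and fell by 1.76 ± 0.07. Cbx2 fell by 1.38 ± 0.07, whereas Cbx7 rose by 1.05 ± 0.07 and Bmi1 by 0.42 ± 0.07. Mycn fell by 2.21 ± 0.07 and its relative Myc, a repressor of Cdkn1a, Cdkn2b and Cdkn2c, rose by 1.39 ± 0.14. Id2, Tbx3, Tbx2 and Zbtb7a rose by 1.30, 0.92, 0.65 and 0.50. With spike-in scaling the calls on Bmi1 and Zbtb7a were lost (adjusted p = 0.281 and 0.148).

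**Figure D3:**
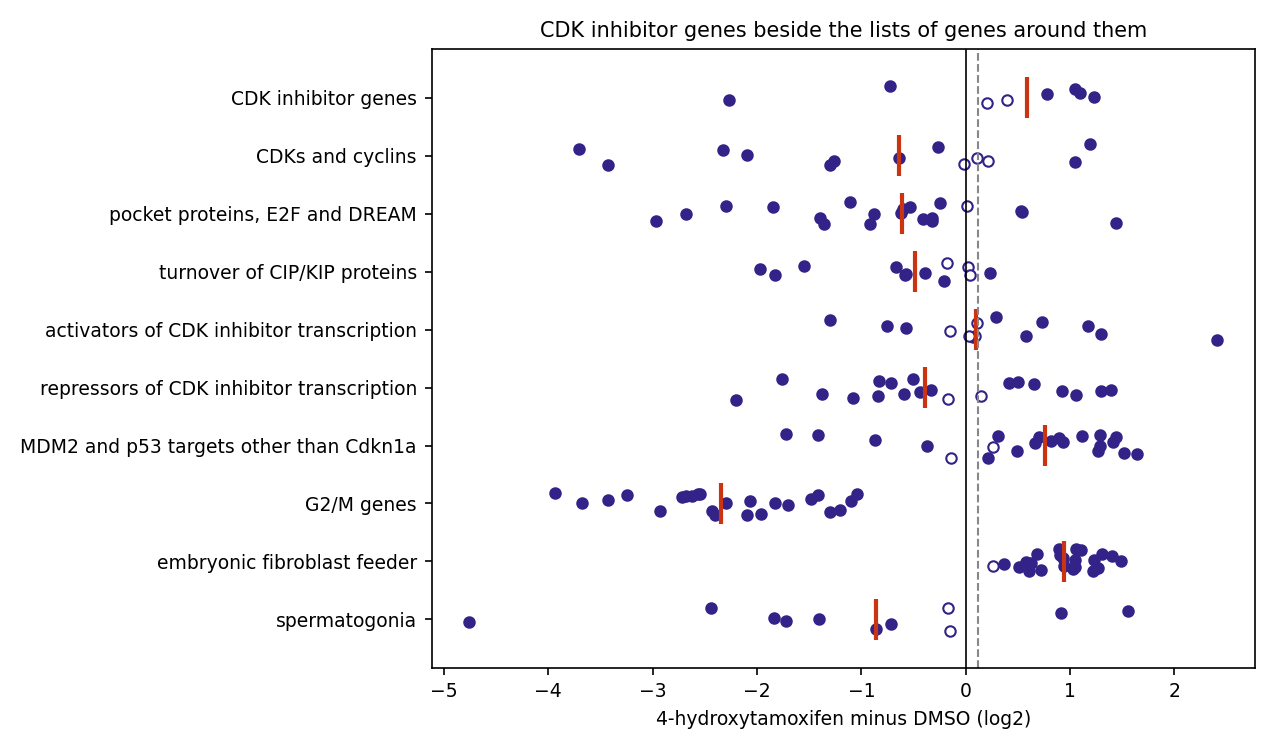
Log2 differences, 4-hydroxytamoxifen minus DMSO, of the genes in each list, with 1 point per tested gene (filled where it passed), a bar at the list's median and a dashed line at the median of all genes; heights within a row carry no value, and the highest activator point, Trp63, is known only as a bound. The 24 G2/M genes all lie below 0 around a median of -2.35, and the 23 fibroblast markers all lie above 0 around 0.95.

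For each inhibitor gene the genes with the most similar values over the 4 arrays were found among 15135 others, by the root mean square difference of log2 values centred on each gene's mean. Cdkn1a was nearest to Tpm2 (0.0094) and Slc25a12 (0.0099). Cdkn2a was nearest to Marveld1 (0.0045) and Ptk7 (0.0092), Cdkn2b to Plac9a (0.0093) and Sri (0.011), and Cdkn2c to Rcor3 and Itm2a (both 0.0078). Cdkn1c was nearest to Vkorc1l1 (0.0054) and Macroh2a2 (0.0063), and Cdkn2d to Eif2b2 (0.0053) and Cnpy3 (0.0056). Cdkn1b and Cdkn3 had more distant neighbours, with 0.015 for Vstm4 and 0.039 for Socs2, and 0.022 for Afap1l2 and 0.026 for Ddx11.

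Scaling on the median or on spike-in spots moved the median of all genes by -0.18 and -0.16, and the share of calls that were higher from 58.3% to 46.7% (5775 higher, 6584 lower) and 49.5% (4978 higher, 5070 lower). The 6 calls on members held under all 13 alternatives, with the direction kept. Relative to the median of all genes the 4 rises were 0.94 for Cdkn1a, 0.66 for Cdkn2a, 0.98 for Cdkn2b and 1.11 for Cdkn2c, and the falls were -0.84 for Cdkn1c and -2.39 for Cdkn3.

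**Figure D4:**
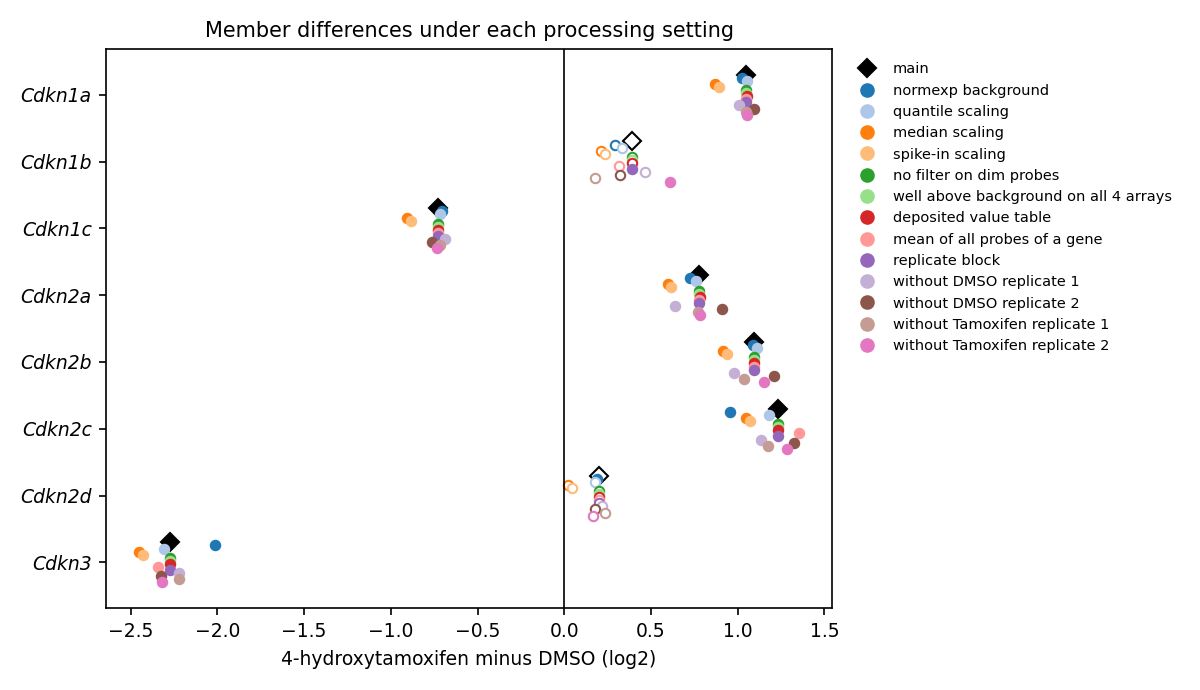
Log2 difference, 4-hydroxytamoxifen minus DMSO, of each CDK inhibitor gene under the processing used (black diamond) and 13 alternatives (coloured points, filled where the test was passed). Cdkn3 stays between -2.45 and -2.02 and Cdkn2c between 0.96 and 1.35, while Cdkn2d comes down to 0.02.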

How the data were processed

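Total RNA from 4 samples, 2 per group, was labelled with Cy3 from 0.20 µg and hybridised to 1-colour Agilent arrays of design 014868. Per the file headers, the deposited intensity values are processed signals that Feature Extraction 10.7.3.1 had background-subtracted and detrended array by array. The version in the submitters' processing notes is 9.5, and which was used is not settled here. A deposited table of log2 values equalled the log2 processed signal plus a constant per array (0.2905, 0.2751, 0.3617 and 0.3562; column medians 6.155, 6.185, 6.35 and 6.348), so its scale and direction are known, and it served as an alternative. All arrays lay on 1 slide read in 1 scan.

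Here control spots were left out, with 60 to 71 outlier spots per array, spots of a probe were averaged as log2 values, and each array's 75th percentile (signals of 676 to 718) was subtracted. A probe was kept if 2 or more of the 4 arrays had it well above background, which left 26392 of 41174. The lowest signal well above background was 15.0 to 19.5 per array. The probe with the highest mean stood for its gene. Names came from RefSeq (GRCm38.p6) for 33636 probes and from the files for 7538. Probe coordinates are those of the files (mm9). Where a probe lies in its transcript was not determined.

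The test was that of limma 3.58.1 under R 4.3.3, by lmFit and eBayes with no term but the group, with Benjamini-Hochberg adjustment over 17537 genes, or over 26392 probes for single probes, and a threshold of 0.05. The code was tested on simulated data. An exact two-sided permutation test of 2 arrays against 2 cannot go below 0.333, so p-values rest on spread pooled over genes, and the number of arrays limits the precision. Where a gene was not well above background on any array of a group, the fold is a bound, taken from normalized log2 means against each array's lowest well-measured signal or, where higher, the signal of the probe. Over 245 probes with repeat spots, the ratio of between-array to between-spot noise was 1.88 in DMSO and 2.20 in 4-hydroxytamoxifen. Such a ratio cannot tell separate cultures from repeat labellings of the same RNA, since either can add noise between arrays. The fit counted the arrays as separate samples, and whether they are separate cultures was not tested.

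All members are named. From each of 7 pathway lists, the text names up to 4 passing genes with the largest difference and those that passed against the list's direction, plus the 2 genes most like each member. Mdm2, Trp53, Cdk4, Cdk2, Ccne1, Ccne2, Ccnd2, Ccnd3, Ddx4, Dazl and the genes beside the members were named outside this rule, after their values were seen. Genes beside the members were sought within 200 kb among tested genes named by RefSeq, each by the probe that stood for it. The members and lists were chosen with earlier results of these data known. Lists are described by counts and medians, with no set test. Promoters were searched on both strands in RefSeq windows of 300 bases, 250 before and 50 after the start; 7 of the 8 members had 1.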

Additional observations from a re-analysis of the deposited data

How the results depend on the processing

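The 4 rises and 2 falls among the members were called under all 13 alternatives. A member was added, for 5 rises, under 4 of them: Cdkn2d with normexp or the stricter filter, and Cdkn1b with the replicate block or without 4-hydroxytamoxifen replicate 2 (0.61, adjusted p = 0.0266). Every list's count of genes called in either direction stayed within 1.5 times that reported. Counts of rises alone left that range in 10 pairs of list and alternative, and counts of falls alone in 7. The differences ranged from 0.87 to 1.09 for Cdkn1a, -0.91 to -0.69 for Cdkn1c, 0.60 to 0.91 for Cdkn2a, 0.92 to 1.21 for Cdkn2b, 0.96 to 1.35 for Cdkn2c and -2.45 to -2.02 for Cdkn3, with adjusted p at most 0.0346 (Cdkn2a). Leaving out 1 array at a time gave 0.18 to 0.61 for Cdkn1b and 0.17 to 0.23 for Cdkn2d. Cdkn2d passed with normexp background correction (0.19) and with only genes well above background on all 4 arrays (0.20, fewer genes tested); for normexp the cause was not tested. The mean over all probes turned Ets1 to -0.03229, since its probes disagree. Of 792 values under alternatives for Nanos2 and the genes named by rule, 36 lost and 9 gained a call.

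Replicate numbers did not pair the arrays: deviations of same-numbered arrays from their group means correlated at -0.045 over genes. With the replicate number as a block, Cdkn1b kept its difference of 0.39 and passed (adjusted p = 0.0477), and no other member's call changed. Probes below 15.0 to 19.5 in signal could not be told from background, which limits 2 of the 13 member probes.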
